A study of Homo sapiens with 22 samples.

Results

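The regions described here are HA peaks of AN3CA cells at which no BAF subunit peak was called in the 8 lists named below. AN3CA is an established human endometrial carcinoma line, and CUT&Tag was used, an assay that tethers a transposase to an antibody so that DNA beside its target is released and sequenced. The HA antibody, which reads a short peptide tag, was used in cells carrying an HA-tagged form of ARID1A, a hybrid with the disordered region of DDX4 (called DDX4 here). The regions were chosen by peak calls: a region belonged when an HA peak of DDX4 on chromosomes 1 to 22 shared not 1 bp with a SMARCA4 or SMARCC1 peak of DDX4, of wild-type ARID1A (WT) or of either Empty replicate. This held for 1124 of the 5268 HA peaks (21.3%, Wilson 95% interval 20.3 to 22.5), and these are called BAF-free HA peaks. The other 4144 HA peaks met at least 1 of the 8 BAF lists.

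ARID1A is the large DNA-binding subunit of the canonical BAF (SWI/SNF) complex, which slides and evicts nucleosomes at enhancers and promoters. SMARCA4 is its ATPase, the motor of the complex, and SMARCC1 is a core scaffold subunit shared by BAF complexes. H3K27ac is an acetyl mark on histone H3 found at active enhancers and promoters. BAF-free here means only that neither subunit had a called peak, not that the protein was absent.

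Cells expressed 1 of 5 forms of ARID1A: the DDX4 hybrid, WT, the CBR truncation, DBDmut (a mutant of the ARID domain) and the delIDR1 truncation. Cells with an empty vector (Empty, 2 replicates) were the control. Each form had 1 library for SMARCA4, SMARCC1 and H3K27ac, and DDX4 alone had an HA library here, so the HA peaks have no replicate check. No HA library of Empty cells was analysed here, so the background of the HA antibody is not measured. The labels do not say how the constructs were expressed or whether the lines are clones, nor whether the Empty replicates came from separate cultures.

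The 22 lists held 5411 to 92136 peaks, and the HA list was the shortest. Its lowest local background was 0.0749 stacked fragments, against 0.192 and 0.146 in the SMARCA4 and SMARCC1 lists of DDX4, so HA was the thinnest of these libraries by this measure. Positions are in hg19, and no gene annotation or genome sequence of that build was used, so regions are given without gene or sequence.

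BAF-free HA peaks were the weak end of the HA list. Their median fold enrichment over the local background, the authors' value, was 3.72, with the lowest at 3.59 and the highest at 7.87. HA peaks that met BAF had a median of 6.80 and reached 38.7. Ranked by -log10 q, the strongest BAF-free peak stood at position 1542 of the list, and 1088 of the 1124 (96.8%) lay below position 2634. A -log10 q of at least 5 was reached by 42 of the BAF-free peaks (3.74%) and by 2779 of the others (67.1%). Both the rule and these strengths come from the same HA library, so they are given as a description.

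Most BAF-free HA peaks rested on very few fragments. The fold and p-value of a peak together fix the whole number of fragments stacked at its summit, called the pileup here (whether fragments or extended reads is not given in the sources used here). The pileup was 3 at 727 of the 1124 peaks (64.7%), 4 or less at 939 (83.5%) and 5 or less at 1029 (91.5%). Among HA peaks that met BAF, 57 (1.38%) had a pileup of 3 and 416 of 5 or less, with a median of 10. A pileup of 3 was the lowest that was called in the HA list. Of the 784 HA peaks at that floor, 727 (92.7%) were BAF-free, against 35 of the 362 at a pileup of 6 (9.67%).

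**Figure D1:**
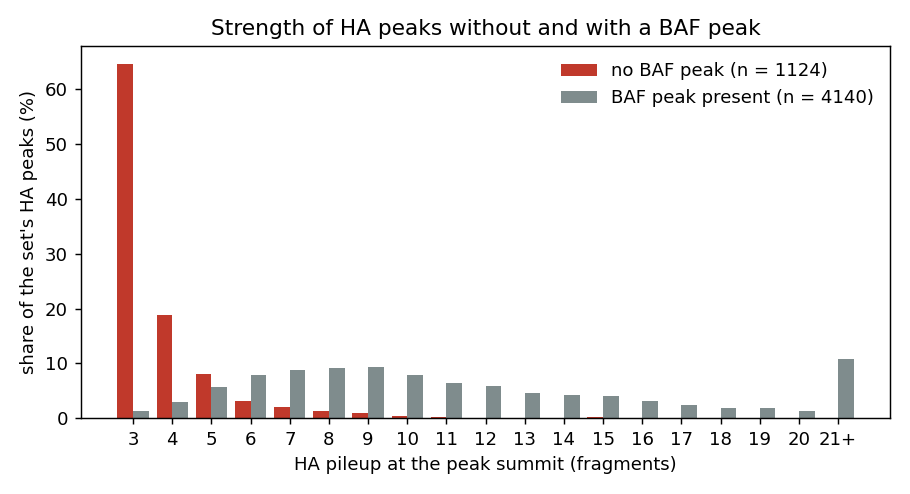
The x axis is the HA pileup at the peak summit in fragments (21+ pools all higher values) and the y axis the share of each set in percent. Red bars are the 1124 BAF-free HA peaks, which gather at a pileup of 3 (64.7%). Grey bars are 4140 HA peaks that met BAF and had a whole pileup, which spread around a median of 10.

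BAF-free HA peaks were also narrow. Their median width was 201 bp, with 178 to 235 bp between the quartiles, against 286 bp and 218 to 391 bp for HA peaks that met BAF. The shortest peak was 162 bp in both sets. The widest BAF-free peak spanned 567 bp on chromosome 22, from 44229860 to 44230426, with a pileup of 5 and no H3K27ac peak in any list. Second came a region on chromosome 4 from 172177853 to 172178316, was 464 bp wide on a pileup of 3 and lay 217 kb from the nearest BAF peak. At equal pileup the widths lay closer: at 3 the median was 201 bp for BAF-free peaks and 205 bp for the others, and at 6 it was 205 bp and 234 bp.

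H3K27ac, which the rule did not use, was called at few BAF-free HA peaks in every library. The rule removed HA peaks that met BAF, and BAF peaks of DDX4 mostly met H3K27ac of DDX4 themselves (84.3% for SMARCA4 and 78.9% for SMARCC1). Low shares thus follow in part from the choice. In DDX4 cells 155 of 1124 (13.8%, Wilson 95% interval 11.9 to 15.9) met an H3K27ac peak, against 3913 of 4144 HA peaks with BAF (94.4%, 93.7 to 95.1) and 77.2% of all HA peaks. These intervals cover counting error only. For BAF-free HA peaks with a -log10 q of at least 5 the share in DDX4 was 52.4%. For the BAF-free class it was 22.7% without Empty replicate 2 in the rule, 36.3% with the BAF lists of DDX4 only and 8.18% with no BAF peak within 1 kb. For BAF-free peaks the share was 11.0% in WT, where 76.5% of all HA peaks met the mark, and 10.9% in CBR, where 72.0% did. It was 9.34% in DBDmut (73.6% of all HA peaks) and 8.10% in delIDR1 (71.2%). In the Empty replicates it was 7.65% and 22.2%, where 71.1% and 80.0% of all HA peaks met the mark. HA peaks with BAF stood at 88.2% to 95.7% in all 7 libraries.

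The acetylated share of each ARID1A form lay between those of the Empty replicates. The forms ran from 8.10% to 13.8% with a mean of 10.6%, and the Empty replicates had a mean of 14.9%. No p is given for this difference, since the forms are not replicates of each other and the libraries carry different stamps in their peak names. The difference of -4.31 percentage points became 2.99 without Empty replicate 2 and -11.6 without replicate 1. The lists differ in reach: H3K27ac peaks covered 13.2 to 20.2 Mb in the 5 forms, against 10.4 Mb in Empty replicate 1 and 36.6 Mb in Empty replicate 2. The part of this reach in the spread of the shares was not tested. By that stamp, whose meaning the labels do not give, WT, CBR, DBDmut and delIDR1 go with Empty replicate 1, and within that stamp the shares were 8.10% to 11.0% in the forms, against 7.65% in Empty. The DDX4 libraries and Empty replicate 2 each have a stamp of their own, so stamp and construct cannot be told apart there.

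**Figure D2:**
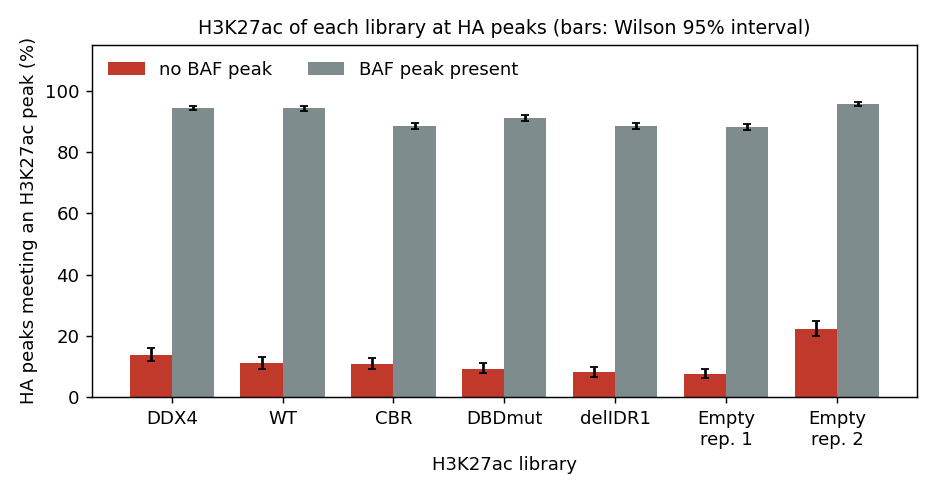
The x axis gives the H3K27ac libraries and the y axis the percentage of HA peaks that met an H3K27ac peak, with Wilson 95% intervals for counting error. BAF-free HA peaks (red) lie between 7.65% and 22.2%, and HA peaks with BAF (grey) between 88.2% and 95.7%.

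Read across libraries, 835 BAF-free HA peaks (74.3%, 71.7 to 76.8) met no H3K27ac peak in any of the 7 lists, against 32 of the HA peaks with BAF (0.772%) and 16.5% of all HA peaks. Without the list of Empty replicate 2 the number was 905 (80.5%), where 18.5% of all HA peaks met none. Another 91 (8.10%, against 2.75% of all HA peaks) met the mark in exactly 1 list. That list was Empty replicate 2 for 70 of them, CBR for 7 and DDX4 for 6. At the other end, 36 BAF-free peaks (3.20%) carried H3K27ac in all 7 lists, as did 3188 of the HA peaks with BAF (76.9%) and 61.2% of all HA peaks.

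Acetylation of DDX4 cells at BAF-free HA peaks was largely present in Empty replicate 2 and less so in replicate 1. The H3K27ac lists of these replicates covered 36.6 Mb and 10.4 Mb. Of all 4068 HA peaks acetylated in DDX4, 57 met the mark in neither Empty replicate. Of the 155 BAF-free ones, 146 met an H3K27ac peak of at least 1 Empty replicate, with 145 in replicate 2, 72 in replicate 1 and 71 in both. A further 9 were acetylated in DDX4 and in neither Empty replicate, which is 1.03% of the 870 BAF-free peaks without the mark in Empty, against 30.8% of 156 such HA peaks with BAF and 5.56% of all such HA peaks. The share was 1.49% in WT (11.6% of all such HA peaks), 1.15% in CBR (4.58%), 1.38% in DBDmut (10.9%) and 1.61% in delIDR1 (11.0%). In the other direction, 82 BAF-free peaks had the mark in both Empty replicates, and DDX4 had it at 71 of them (86.6%), against 98.6% of all HA peaks with the mark in both. WT had it at 84.1% (97.9% of all such HA peaks), CBR at 78.0% (94.4%), DBDmut at 76.8% (95.4%) and delIDR1 at 54.9% (92.5%). Between the Empty replicates themselves, 168 BAF-free peaks were acetylated in replicate 2 alone and 4 in replicate 1 alone. The shares of the forms above leave these peaks out, so the 2 kinds of difference are not on 1 scale.

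By median, the H3K27ac peaks found at BAF-free HA peaks ranked lower in their own lists than those at HA peaks with BAF. In DDX4 their median percentile by -log10 q was 60.3, against 89.0 for the H3K27ac peaks at HA peaks with BAF. The medians ran from 44.6 in DBDmut to 80.8 in Empty replicate 2 over the 7 lists, against 83.8 to 95.7. In DDX4 these H3K27ac peaks were 543 bp wide in the median, against 843 bp at HA peaks with BAF and 356 bp over the list.

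HA strength and acetylation went together among BAF-free HA peaks. In DDX4 cells H3K27ac was met by 27 of 727 at a pileup of 3 (3.71%, 2.56 to 5.35), by 25 of 212 at a pileup of 4 (11.8%, 8.12 to 16.8) and by 32 of 90 at a pileup of 5 (35.6%, 26.4 to 45.8). At a pileup of 6 or more it was met by 71 of 95 (74.7%, 65.2 to 82.4). The few peaks with a pileup of 6 or more were thus mostly acetylated and the many of lower pileup mostly not. By -log10 q the contrast was smaller. Of the 42 BAF-free peaks with a value of at least 5, 52.4% met H3K27ac of DDX4 and 28.6% met the mark in no list. The H3K27ac peaks of DDX4 covered 0.605% of the bases of the spanned chromosomes. An HA peak meets the mark by 1 shared bp, so that value is not the share to expect of HA peaks.

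At each equal pileup of 3 to 9 the acetylated share of BAF-free peaks was below that of HA peaks with BAF, by an amount that varied with the pileup. At a pileup of 3, 3.71% of BAF-free peaks were acetylated in DDX4, against 23 of 57 HA peaks with BAF (40.4%, 28.6 to 53.3). At 4 it was 11.8% against 81.7%, at 5 it was 35.6% against 85.4%, and at 6 it was 71.4% (54.9 to 83.7) against 89.6% (85.8 to 92.5). At 9, 6 of 10 BAF-free peaks had the mark (Wilson interval 31.3% to 83.2%), against 371 of 385 (96.4%). At 6 or more together, 74.7% of BAF-free peaks and 96.3% of the others had the mark.

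**Figure D3:**
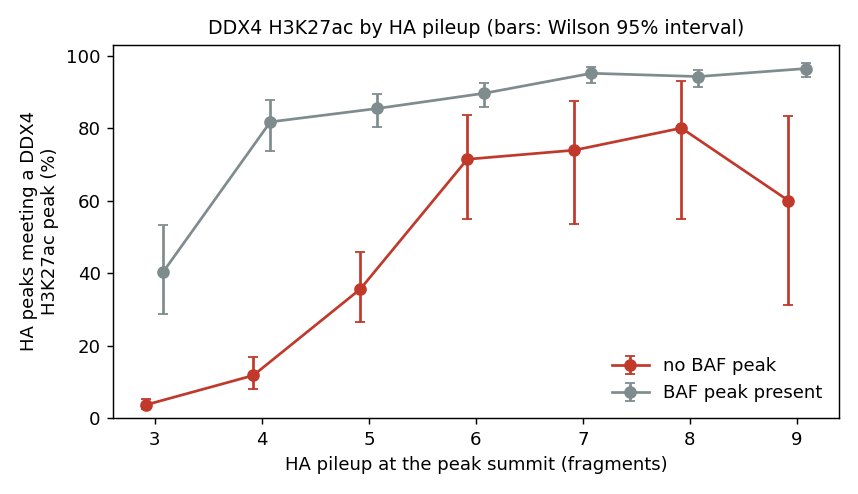
The x axis is the HA pileup in fragments, from 3 to 9, and the y axis the percentage of HA peaks that met an H3K27ac peak of DDX4, with Wilson 95% intervals. BAF-free HA peaks (red) climb steeply between a pileup of 3 (3.71%) and 6 (71.4%) and lie below HA peaks with BAF (grey) throughout.

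Peaks of higher pileup met H3K27ac more often than those of the lowest pileup in every library. At a pileup of 6 or more, 57.9% of BAF-free peaks met H3K27ac in WT, 58.9% in CBR, 48.4% in DBDmut and 40.0% in delIDR1, against 46.3% and 87.4% in the Empty replicates. HA peaks with BAF of the same pileups stood at 90.4% to 97.3% over the 7 libraries. At a pileup of 3 the shares were 2.06% in WT, 2.89% in CBR, 2.06% in DBDmut and 2.34% in delIDR1, against 1.10% and 8.80% in the Empty replicates. Of the 95 with a pileup of 6 or more, 8 (8.42%) had no H3K27ac in any list, against 644 of the 727 with a pileup of 3 (88.6%).

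In the BAF lists of the same cells, too, peaks at the lowest pileup met H3K27ac less often than the list as a whole. Among DDX4 peaks at the lowest pileup of their list, 50 of 784 for HA (6.38%, 4.87 to 8.31) met H3K27ac of DDX4, 45 of 436 for SMARCA4 (10.3%, 7.80 to 13.5) and 57 of 303 for SMARCC1 (18.8%, 14.8 to 23.6). Those floors were pileups of 3, 4 and 4, and over the whole lists the shares were 77.2%, 84.3% and 78.9%. Among peaks with a -log10 q under 3, a wider class, they were 28.4%, 30.0% and 41.4%. Peaks at the lowest pileup made up 14.9% of the HA list, 5.06% of the SMARCA4 list and 3.19% of the SMARCC1 list. Those with a -log10 q under 3 made up 21.6%, 7.58% and 3.31%.

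The step from no BAF list to a single one was large. HA peaks met by exactly 1 of the 8 BAF lists numbered 254, of which 74.4% were acetylated in DDX4 and 4.72% in no list. Their median fold was 5.03, against 3.72 at BAF-free peaks, and the 1625 HA peaks met by all 8 lists reached 8.21 with 98.3% acetylated. The lists that alone removed the most HA peaks from the BAF-free class were SMARCC1 of Empty replicate 2, with 84, and SMARCC1 of WT, with 77.

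The BAF lists of CBR, DBDmut and delIDR1, which the rule did not use, seldom met BAF-free HA peaks. SMARCA4 peaks met 12 of 1124 in CBR (1.07%), 9 in DBDmut (0.801%) and 6 in delIDR1 (0.534%), against 50.7%, 60.3% and 43.8% of all HA peaks. SMARCC1 peaks met 13 in CBR (1.16%), 22 in DBDmut (1.96%) and 4 in delIDR1 (0.356%), against 49.8%, 65.9% and 53.3% of all HA peaks. In all, 49 BAF-free peaks (4.36%, 3.31 to 5.72) met at least 1 of these 6 lists, as did 72.4% of all HA peaks. Only 2 of these 49 lay among the 835 without H3K27ac. The lists share sites with those the rule used, so low shares follow in part from the choice.

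The strongest such peak lay on chromosome 5, from 23527267 to 23527484, with a pileup of 8 and a fold of 7.02. SMARCA4 and SMARCC1 of CBR and SMARCA4 of delIDR1 met it, H3K27ac was present in CBR alone, and a BAF peak of the rule's lists lay 41 bp away. A similar pattern was seen near the end of chromosome 17, from 81140483 to 81140748, with both subunits and H3K27ac in CBR alone and a BAF peak 66 bp away. The others of the 5 strongest each met 1 BAF list of DBDmut. They lay on chromosome 17 from 2496605 to 2496813 and on chromosome 10 from 135450941 to 135451166 and from 102638133 to 102638478, and all 3 were acetylated in DDX4, CBR and Empty replicate 2.

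Many BAF-free HA peaks lay far from BAF, and H3K27ac was met more often at those that lay near. The nearest SMARCA4 or SMARCC1 peak of the rule's lists was 22494 bp away in the median, within 1 kb for 121 peaks (10.8%), within 10 kb for 324 (28.8%) and 100 kb or more away for 174 (15.5%). H3K27ac of DDX4 was met by 60.3% of those within 1 kb and by 8.18% of those farther away, against 77.2% of all HA peaks. By number of H3K27ac lists, the median distance was 30542 bp with none, 12594 bp with 1 to 3, 2460 bp with 4 to 6 and 510 bp with all 7. The median pileup of these classes rose in the same order, at 3, 4, 5.50 and 6. Distance was not separated from pileup here. A BAF peak lay within 1 kb of 30 of the 835 unacetylated peaks (3.59%) and of 21 of the 36 acetylated in every list (58.3%).

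**Figure D4:**
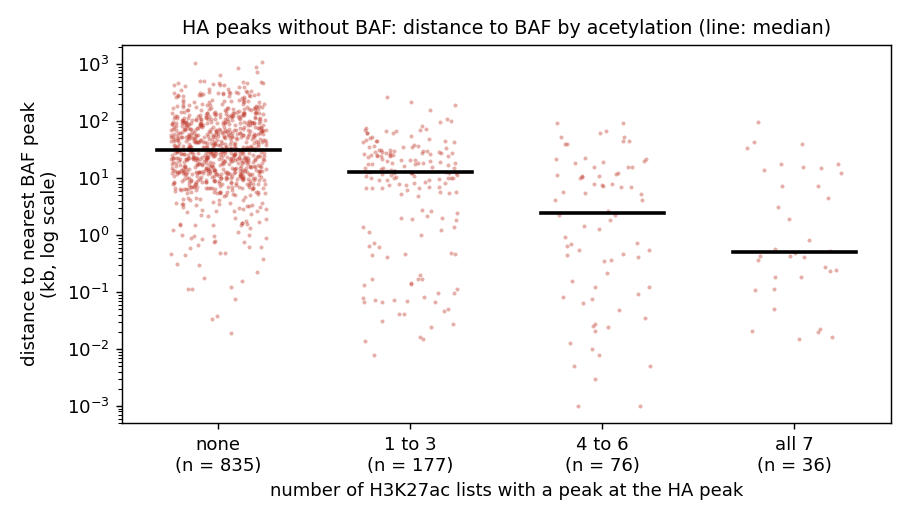
Each point is a BAF-free HA peak, placed by the number of H3K27ac lists with a peak there (x axis) and by its distance in kb to the nearest BAF peak of the rule's lists (y axis, log scale). Black lines are medians, at 30542 bp with no list and 510 bp with all 7.

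At the edge of the rule, some members missed a BAF peak by a few bases. The nearest lay on chromosome 11, from 32112621 to 32112782 and from 102322641 to 102322864, each 1 bp from a BAF peak, with pileups of 7 and 4 and with H3K27ac in 5 and 6 lists. The next was on chromosome 10, from 51565244 to 51565410, at 3 bp and with 6 H3K27ac lists. On the other side of the rule, the HA peak on chromosome 21 from 45855690 to 45855855 shared 1 bp with a DDX4 SMARCA4 peak and had a pileup of 4. The peak on chromosome 17 from 79520910 to 79521097 shared 2 bp with a SMARCC1 peak of Empty replicate 2. The 5 peaks nearest to BAF met 5 or 6 H3K27ac lists, and the 5 of smallest overlap met 2 to 7.

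At the far end stood isolated peaks without acetylation. The most distant lay on chromosome 11, from 80851464 to 80851803, 1100 kb from any BAF peak of the rule, with a pileup of 5 and a fold of 5.51. The next were on chromosome 15 from 46982704 to 46982925, at 1060 kb, on chromosome 14 from 85079359 to 85079564, at 897 kb, and on chromosome 4 from 62710455 to 62710681, at 867 kb, each with a pileup of 3. None of these met an H3K27ac peak in any list.

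Among the 10 BAF-free HA peaks of highest -log10 q, all but 1 met H3K27ac in some list (83.5% of all HA peaks did). The strongest lay on chromosome 19 from 16936109 to 16936432, with a pileup of 10, a fold of 7.87 and H3K27ac in all 7 lists, 1920 bp from a BAF peak. H3K27ac was also present in all 7 lists on chromosome 17 from 19140257 to 19140603, 367 bp from BAF, and from 17140519 to 17140785, 43.8 kb from BAF. At the last of these the H3K27ac folds were 16.3 in DDX4, 15.4 in WT, 15.1 in CBR, 14.4 in DBDmut and 17.8 in delIDR1, against 11.8 and 17.1 in the Empty replicates. Each fold belongs to its own list, and that of DDX4 compares with a median of 5.61 for the H3K27ac peaks of DDX4 at BAF-free peaks.

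A few of these strong peaks had H3K27ac in DDX4 and in part of the libraries only. On chromosome 2 from 27651988 to 27652164 the mark was present in DDX4 and in Empty replicate 2, with folds of 3.95 and 9.56, and on chromosome 21 from 46293838 to 46294089 in the same libraries, with folds of 3.34 and 5.80. On chromosome 3 it was present in DDX4, WT, DBDmut and Empty replicate 2 from 98450892 to 98451177, and in every library but Empty replicate 1 from 125986350 to 125986520. The 1 peak of the 10 without H3K27ac in any list lay on chromosome 11 from 111170475 to 111170716, with a pileup of 6 and a BAF peak 28.3 kb away.

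Strong BAF-free HA peaks without H3K27ac were scattered over several chromosomes. After the peak on chromosome 11, a pileup of 9 and a fold of 6.94 were found on chromosome 12 between 52416775 and 52416983, 2335 bp from BAF. On chromosome 7, from 152809929 to 152810150, a pileup of 6 stood 123 kb from BAF. On chromosome 2, a pileup of 6 was found from 242987830 to 242988043, less than 1 Mb from the last peak of that chromosome in any list, and a pileup of 5 from 73042541 to 73042725.

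Signs of artefact-prone regions were then read from the lists themselves, since no list of such regions was applied. The outermost peak of a chromosome and the edges of its longest stretch with no peak in any of the 22 lists stood in for sequence ends and unassembled centromeres. These stretches were 0.529 to 21.1 Mb long, and the shortest ones, as on chromosome 22, need not be centromeres. The HA list was among the 22, so some BAF-free peaks set an edge and were counted near it. Examples start at 19381708 on chromosome 13 and at 34809545 on chromosome 22. On chromosomes 13, 14, 15, 21 and 22 the first peak lay at position 9540343 or beyond and was still counted as an end. Within 1 Mb of such an edge lay 57 BAF-free peaks (5.07%, 3.93 to 6.51), against 241 HA peaks with BAF (5.82%, 5.14 to 6.57) and 5.66% of all HA peaks. Near chromosome ends there were 47 (4.18%) against 174 (4.20%), with 4.20% of all HA peaks, and near the peak-free stretch 10 (0.890%) against 67 (1.62%), with 1.46% of all HA peaks. Of the 57, the strongest was on chromosome 21 from 47553456 to 47553636, with a pileup of 7, 31 bp from a BAF peak and with H3K27ac in DDX4, CBR and Empty replicate 2. Over all BAF-free peaks the intervals of both sets overlapped. By acetylation, 19 of the 177 BAF-free peaks with 1 to 3 H3K27ac lists lay near an edge (10.7%, 6.98 to 16.2), against 29 of 235 HA peaks with BAF in that class (12.3%, 8.73 to 17.2), and 35 of the 835 with none did (4.19%). Among peaks with a -log10 q of at least 5 it was 7 of 42 BAF-free peaks (16.7%, 8.32 to 30.6), against 172 of 2779 with BAF (6.19%, 5.35 to 7.15). That difference rests on 7 peaks of a class found after seeing the data, and was not tested.

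Local background, which can be raised where reads pile up over repeats, tended to rise with the pileup in both sets. The local background was more than 5 times the lowest value of the list at 55 BAF-free HA peaks (4.89%, 3.78 to 6.32), against 3002 of the HA peaks with BAF (72.4%) and 58.0% of all HA peaks. It equalled the lowest value at 349 BAF-free peaks (31.0%), against 25 of the others (0.604%), in the same HA library that the rule used. A peak of few fragments can be called only over a low background, so these shares are bound up with the low pileups and are no separate sign. At a pileup of 3 the ratio to the lowest background was at most 1.53, with a median of 1.18, in both sets. At 6 a raised background was found at 8 of 35 BAF-free peaks (22.9%) and 76 of 327 with BAF (23.2%), and at 9 at all 10 BAF-free peaks and 298 of 385 with BAF (77.4%). Another HA peak of any kind lay within 10 kb of 46 BAF-free peaks (4.09%, 3.08 to 5.42), of 658 HA peaks with BAF (15.9%, 14.8 to 17.0) and of 13.4% of all HA peaks.

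Of the 55 BAF-free peaks of raised background, 43 met H3K27ac in DDX4 (78.2%), near the 77.2% of all HA peaks. Their median pileup was 8, and BAF-free peaks with a pileup of 6 or more stood at 74.7%. Of these 55, 35 lay within 1 kb of a BAF peak, and 1 lay near an end or peak-free stretch. The 4 without H3K27ac in any list are singled out here after their values were seen. The highest background of all was on chromosome 1 from 12534028 to 12534299, with a pileup of 18 over 3.52 fragments, 47.0 times the lowest, and a BAF peak 984 bp away. Another was on chromosome 19 from 49468956 to 49469195, with a pileup of 9 at 12.8 times the lowest and a BAF peak 313 bp away. The remaining were the peak on chromosome 12 given above and a pileup of 5 on chromosome 1 from 21671558 to 21671729.

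The extreme HA peaks all met BAF lists and so lay outside the class by its rule. The 5 of highest -log10 q met all 8 BAF lists. They included a 196 bp peak of fold 37.2 on chromosome 13 (110076484 to 110076679) and 2 peaks within 1 Mb of an edge on chromosome 1, from 121484064 to 121485424 and from 567264 to 568179. Among the 32 HA peaks with BAF and no H3K27ac, 5 met all 8 lists and 5 lay near an edge (15.6%).

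BAF-free HA peaks were spread more evenly over chromosomes than HA peaks with BAF. Per Mb of spanned chromosome they ran from 0.233 on chromosome 21 to 0.593 on chromosome 19, a ratio of 2.54, with 0.402 over all chromosomes. HA peaks with BAF ran from 0.795 on chromosome 18 to 5.93 on chromosome 19, a ratio of 7.46, with 1.48 overall. On the gene-dense chromosome 19, 35 of 385 HA peaks were BAF-free (9.09%), and on the gene-poor chromosomes 13 and 4 it was 42 of 130 (32.3%) and 72 of 224 (32.1%). Within the class, unacetylated peaks had 0.305 per Mb on chromosome 19 and 0.314 on chromosome 4, while acetylated ones had 0.288 and 0.0628. Over all chromosomes the unacetylated ran from 0.130 on chromosome 21 to 0.512 on chromosome 22, a ratio of 3.95. The acetylated ran from 0.0568 to 0.288, a ratio of 5.06. With 9 to 108 BAF-free peaks per chromosome these densities carry large counting errors, and they were not tested.

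**Figure D5:**
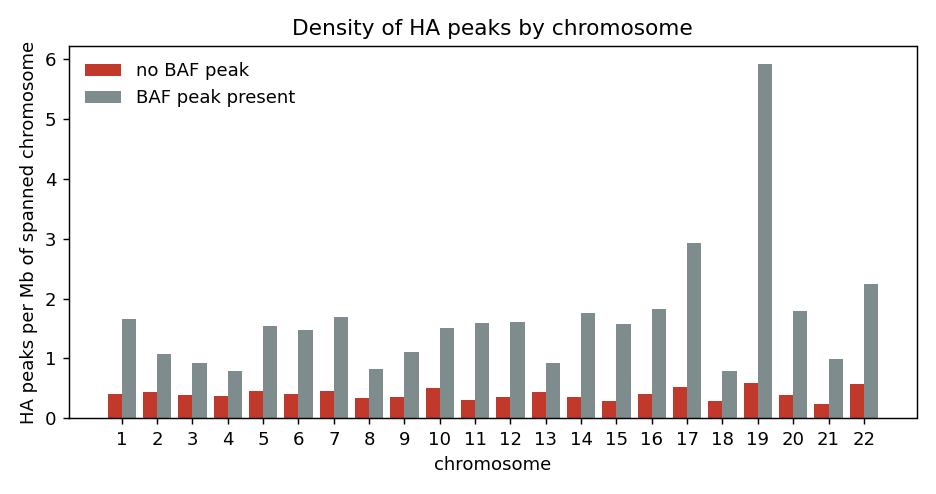
The x axis gives the chromosomes and the y axis HA peaks per Mb between the outermost peaks of any list. BAF-free HA peaks (red) lie between 0.233 and 0.593 per Mb, and HA peaks with BAF (grey) between 0.795 and 5.93, the highest on chromosome 19.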

How the data were processed

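CUT&Tag libraries were made with a commercial protocol and 14 PCR cycles, per the labels' protocols. The submitters' processing notes name the build hg19 and bcl2fastq, while aligner, duplicate handling, peak caller and control are not given here. The authors deposited 1 list in the 10-column narrowPeak layout per library, with a fold (a ratio of summit pileup to local background, each with 1 added), a -log10 p-value, a -log10 q-value of at least 2 and a score of 10 times the -log10 q per peak. The fold's form and the score were read from the values. Read depth is unknown. Titles gave each sample's construct and antibody.

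Peaks met when they shared 1 bp. Fold and Poisson p-value gave whole pileups in each list for 99.7% of peaks or more (tolerance 0.001 on the -log10 scale). Shares have Wilson 95% intervals and no test. Values at equal pileup, by edge class and given the mark in Empty were added after seeing the data. Overlap and pileup code was tested on simulated data first. The class, the lists and the settings were chosen with earlier results of these data known.

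Regions named are the 10 BAF-free peaks of highest -log10 q, the 5 strongest with H3K27ac in all lists, in none, or with BAF of CBR, DBDmut or delIDR1, the 5 farthest from, nearest to and least overlapping BAF, the 5 widest and the 5 strongest near an edge; not all are printed. Python 3.11.15, numpy 2.4.6, scipy 1.17.1, pandas 2.3.3 and matplotlib 3.10.9 were used.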

Additional observations from a re-analysis of the deposited data

Results flagged for a closer look

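Chromosome X was outside the comparisons above. There, 37 of 122 HA peaks (30.3%) met none of the 8 BAF lists. They had a median fold of 3.72 and a median width of 204 bp, and 5 of the 37 (13.5%) met H3K27ac of DDX4. They stand here because they are peaks in data that the comparisons did not use. No HA control library was analysed here, and whether chromosome X differs from chromosomes 1 to 22 was not tested.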

How the results depend on the processing

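The number of BAF-free HA peaks, 1124, stayed between 1003 and 1303 under 10 other settings. It was 42 with HA peaks at a -log10 q of at least 5, and 1730 with the BAF lists of DDX4 only. Without Empty replicate 1 or 2 it was 1141 or 1287. The median width stayed between 200 and 229 bp under all settings tried. The median fold was 6.41 at a -log10 q of at least 5 and 3.72 to 4.27 under the other settings.

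The acetylated share in DDX4 (13.8%) moved with the definition, and its difference from HA peaks with BAF (-80.6 percentage points) kept its sign under every setting tried. The share and difference were 20.7% and -74.2 with an overlap of 50% of the shorter peak, 18.5% and -75.9 with summits within 250 bp, 8.18% and -85.3 with no BAF peak within 1 kb, and 18.9% and -76.0 with BAF peaks at a -log10 q of at least 5. At that threshold for HA peaks they were 52.4% and -44.5. The share was 11.8% with the BAF lists of all constructs and 11.3% with the HA summit inside the H3K27ac peak. Leaving out an Empty replicate gave 14.5% to 22.7% and -80.0 to -72.2, the larger shift without replicate 2. Among settings chosen after seeing the data, HA peaks at a pileup of 3 gave 3.71% and -36.6, BAF lists without WT 19.6% and -76.5, without WT SMARCC1 16.7% and -78.3, and of DDX4 only 36.3% and -60.9. The cause was not tested. The pileup setting compares peaks of equal pileup.

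The number near an end or peak-free stretch, 57, was 102 within 2 Mb, 7 of 42 at an HA -log10 q of at least 5 and 86 of 1730 with the BAF lists of DDX4 only. The difference in acetylated share between forms of ARID1A and Empty ran from -11.6 to 2.99 percentage points when 1 library was left out, turning positive without Empty replicate 2. No paired analysis was possible because HA and every ARID1A form have a single library per antibody. With HA pileups of 3 at most BAF-free peaks, the depth limits what can be said of any single region.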
